A study of Mus musculus with 8 samples.

Results

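The interferon-stimulated genes described here are a list of 39 genes, named one by one, that cells raise when an interferon binds its receptor. They were followed in the ventricles of adult male C57BL\6 mice 24 hours after surgery. The 4 MI mice had a permanent occlusion of the anterior interventricular artery and the 4 sham-operated mice the same surgery without ligation of the artery, and the labels give no other treatment or allele for either group. Total RNA of each mouse was labelled with 1 dye and hybridised to 1 array, so that a value is the mean over all cells of the ventricles, infarcted and spared. In such a sample, a change in the number of cells of a type and a change in RNA per cell cannot be told apart. Of the 39 genes, 37 had a probe named by one of their RefSeq transcripts and all 37 had one retained, of 15156 genes with a retained probe in all. Retained probes are those that 4 or more of the 8 arrays read well above background, and a gene was read at its brightest retained probe. Mx1 and Mx2 were not analysed here. Of the 37, 36 were well above background on all 8 arrays, the exception being Oas3, which was retained through the 4 MI arrays alone.

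Interferons are secreted proteins that warn cells of viral nucleic acid or of DNA and RNA out of place. Type I interferons bind the receptor made of Ifnar1 and Ifnar2, whose kinases activate Stat2. A complex that holds Stat2 and Irf9 binds the interferon-stimulated response element, ISRE, in the promoters of its target genes, while interferon gamma acts through the gamma-activated site, GAS. Many of the target genes encode proteins that block viruses, others the sensors and transcription factors of the pathway itself. In the infarcted heart, dying cells release nucleic acids and leukocytes enter the tissue, and both are known sources of interferon responses.

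RefSeq windows of 300 bases, from 250 bases before to 50 bases after a transcription start in GRCm38.p6, were matched for 30 of the 39 genes, and Dhx58, Usp18, Parp9, Parp14, Oas2, Mx1, Mx2, Iigp1 and Rtp4 had none in the table used. The core of the ISRE, GAAA and again GAAA after 2 bases of any kind (TTTC and TTTC on the other strand), was found in windows of 14 of the 30 genes (46.7%), against 3.99% of all 27025 genes with a window and 3.44% of all 32851 windows. Overlapping matches were each counted. The GAS core, TTCNNNGAA, which reads the same on both strands, was found for 7 of the 30 genes (23.3%), against 9.55% of all genes and 8.30% of all windows. Oas1a, Eif2ak2, Igtp and Bst2 held both.

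The stretches of 30 bases around the ISRE cores are printed because the share of genes with a core was higher in the list than over all genes, although 16 of the 30 genes held none. Capitals mark the matches, and each stretch is read 5′ to 3′ on the strand of its gene in GRCm38.p6. The first lines belong to genes that rose in MI mice.
Isg15 (chr4:156200871-156200900, minus strand): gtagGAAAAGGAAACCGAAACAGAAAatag
Ifit1 (chr19:34640784-34640813, plus strand): gTTTCACTTTCcagtctcagTTTCAGTTTC
Ifit3 (chr19:34583363-34583392, plus strand): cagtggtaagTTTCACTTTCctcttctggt
Ifit3 (chr19:34583397-34583426, plus strand): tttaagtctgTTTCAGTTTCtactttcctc
Oas1a (chr5:120907523-120907552, minus strand): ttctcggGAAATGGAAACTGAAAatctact
Oas3 (chr5:120777715-120777744, minus strand): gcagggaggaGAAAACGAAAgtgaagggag
Rsad2 (chr12:26456553-26456582, minus strand): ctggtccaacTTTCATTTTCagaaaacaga

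The remaining stretches belong to genes whose difference between MI and sham-operated mice did not pass the test, and they hold the same core letters.
Ifih1 (chr2:62646206-62646235, minus strand): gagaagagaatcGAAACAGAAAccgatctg
Stat2 (chr10:128270266-128270295, plus strand): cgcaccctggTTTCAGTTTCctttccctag
Eif2ak2 (chr17:78882535-78882564, minus strand): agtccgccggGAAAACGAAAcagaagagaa
Gbp2 (chr3:142620594-142620623, plus strand): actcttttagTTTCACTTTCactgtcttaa
Gbp3 (chr3:142559992-142560021, plus strand): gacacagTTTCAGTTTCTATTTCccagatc
Igtp (chr11:58199512-58199541, plus strand): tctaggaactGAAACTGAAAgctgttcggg
Irgm1 (chr11:48871428-48871457, minus strand): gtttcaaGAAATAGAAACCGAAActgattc
Bst2 (chr8:71537580-71537609, minus strand): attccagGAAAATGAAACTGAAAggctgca

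Of the 14 genes with an ISRE core, 6 rose in MI mice, Oas3 counted among them, with a median log2 fold change of 0.57. Of the 16 without one, 7 rose (Cmpk2, Ifi47, Irf7, Irf9, Oasl1, Oasl2 and Tap1), with a median of 0.62. Of the 7 genes with a GAS core 1 rose (Oas1a), and of the 23 without one 12 rose. These counts describe letters in 1 window per start and were not tested. Isg15 held 3 overlapping ISRE cores, the most of the list, and its whole window is shown with them in capitals.
Isg15 (chr4:156200769-156201068, minus strand): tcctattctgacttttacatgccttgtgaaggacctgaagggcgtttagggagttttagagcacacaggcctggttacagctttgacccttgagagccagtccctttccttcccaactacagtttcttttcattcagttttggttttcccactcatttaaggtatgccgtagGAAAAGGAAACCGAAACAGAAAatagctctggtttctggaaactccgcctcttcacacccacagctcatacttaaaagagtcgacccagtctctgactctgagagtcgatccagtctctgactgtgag

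**Figure D1:**
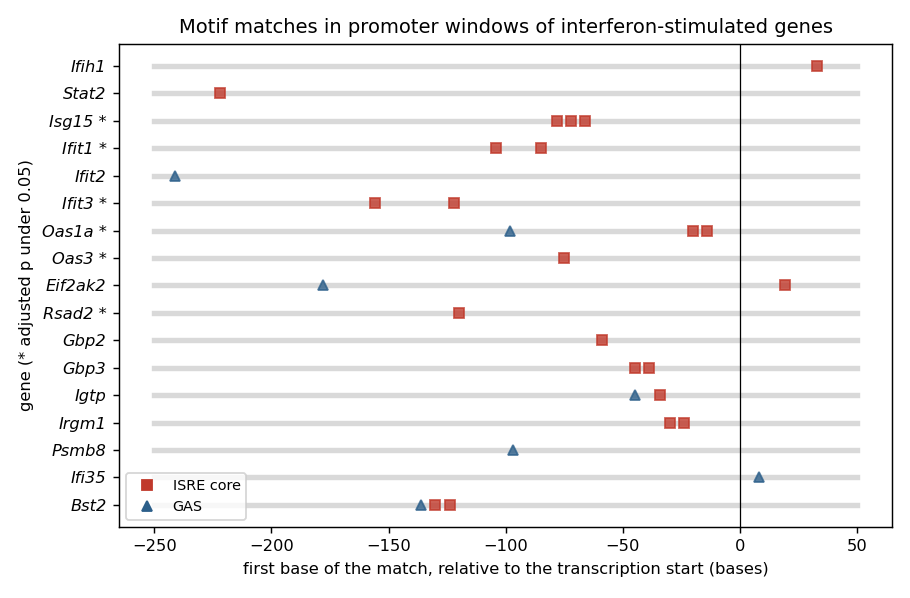
Position of each ISRE core (squares) and GAS core (triangles) in the 300-base promoter window of the interferon-stimulated genes that held one, in bases from the transcription start (x axis); grey bars are the windows and an asterisk marks an adjusted p under 0.05. The 3 cores of Isg15 begin at -78, -72 and -66, and both marked and unmarked genes hold cores.

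Of the 37 measured genes, 17 were higher in MI mice than in sham-operated mice and none was lower. The test was that of limma with the Benjamini-Hochberg adjustment over all 34038 retained probes, at an adjusted p under 0.05. By the same test 6.3% of all retained probes were higher in MI mice and 1.31% lower, and of the brightest probes of all genes 7.74% were higher. For the lower direction, the count among the 37 was also 0 at an unadjusted p under 0.05, by significance analysis of microarrays and by the unmoderated t statistic. A fold change over 2 was reached by 11 of the 17 (Irf7, Isg15, Usp18, Ifit1, Ifit3, Oas3, Oasl1, Oasl2, Rsad2, Cmpk2 and Tap1), against 3.07% of all probes and 4.06% of the brightest probes of all genes. Since Oas3 was retained through the MI arrays alone, its call had to follow. Over the 36 genes well above background on all 8 arrays, the counts were 16 higher, 10 of them over 2-fold. In 20 of the 37 genes every MI mouse was above every sham-operated mouse, which was so for 8.46% of all probes and 9.45% of the brightest probes of all genes. For each of the 17 genes that rose the exact two-sided permutation test gave p = 0.0286, the smallest that 4 against 4 mice allow.

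The median log2 fold change of the 37 genes was 0.64, against 0.07 over all genes and 0.12 over all retained probes on the same scale. Of the 37, 36 were above 0 and 25 (67.6%) above 0.5, against 58.7% and 14.0% of all genes. Values were on the scale of the deposited data, on which the median probe lay 0.12 above 0. With each array scaled to its 75th percentile in its place, the median probe moved to -0.02 and the calls over all probes from 2144 higher and 446 lower to 2963 higher (8.7%) and 3010 lower (8.84%). On that scale 17 of the 37 genes were again higher and none lower, the median of the 37 was 0.54, and 34 were above 0. The genes below 0 on that scale were Psmb9, Parp9 and Dtx3l, of which Psmb9 was below 0 on both. Within the first row of the slide, with 2 MI and 2 sham arrays, the median of the 37 was 0.64, and within the second row 0.68.

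**Figure D2:**
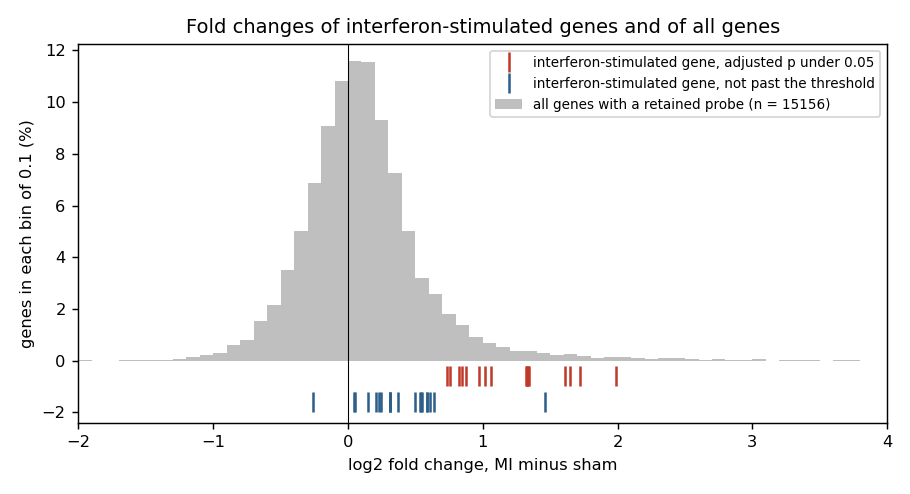
Log2 fold change between MI and sham-operated mice (x axis) for all 15156 genes with a retained probe, as the percent of genes in each bin of 0.1 (grey bars, y axis), with the 37 interferon-stimulated genes as ticks under the axis. The 17 genes past an adjusted p of 0.05 (upper ticks) lie between 0.73 and 1.99, the value of Oas3, while the bulk of all genes lies around 0.

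Isg15, a ubiquitin-like protein that is attached to other proteins, was among the strongest of the list. Its log2 values were 12.20, 12.55, 12.53 and 12.36 in the MI mice and 10.87, 10.70, 10.84 and 10.79 in the sham-operated mice. All 4 MI mice lay far above the sham-operated mice, whose values were close together. The log2 fold change was 1.61 ± 0.20 (SE; 3.05-fold, adjusted p = 2.54e-06), and a second, dimmer probe gave 1.54. Usp18, the protease that takes Isg15 off its targets and blocks the type I receptor, was at 8.99, 9.12, 9.33 and 8.89 in the MI mice and 8.08, 7.56, 7.69 and 7.67 in the sham-operated mice. The groups did not overlap, and the log2 fold change was 1.33 ± 0.21 (adjusted p = 6.97e-05). Trim25, a ubiquitin ligase that activates the RNA sensor Ddx58, was bright in both groups at 12.59, 11.91, 12.63 and 12.20 in the MI mice and 12.48, 11.81, 12.46 and 11.98 in the sham-operated mice. Its groups overlapped widely, with a log2 fold change of 0.15 ± 0.23 (adjusted p = 0.777).

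The IFIT proteins bind viral RNA that lacks the marks of the cell's own messages. Ifit1 was at 8.20, 8.41, 8.55 and 7.97 in the MI mice and 7.06, 6.31, 6.51 and 6.67 in the sham-operated mice. Its difference was the larger of the family, 1.65 ± 0.22 (3.13-fold, adjusted p = 6.73e-06), and its highest sham value, in sham mouse 1, was still 0.91 under its lowest MI value. Ifit3 was at 9.96, 10.13, 10.27 and 9.84 in the MI mice and 9.10, 8.43, 8.64 and 8.65 in the sham-operated mice. It rose by 1.34 ± 0.21 (adjusted p = 8.23e-05) with sham mouse 1 again the highest of its group. Ifit2 was at 8.05, 7.99, 8.44 and 7.78 in the MI mice and 7.83, 7.16, 7.31 and 7.40 in the sham-operated mice. Sham mouse 1 lay above MI mouse 4, and the log2 fold change of 0.64 ± 0.22 did not pass the test (adjusted p = 0.073). With sham mouse 1 left out, Ifit2 passed, at 0.77 (adjusted p = 0.0335).

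The OAS family holds enzymes that sense double-stranded RNA and switch on RNA decay, with the Oasl genes as their relatives. Oas1a, Oas2, Oasl1 and Oasl2, all well above background on every array, rose. Oas3 was at 6.43, 6.57, 6.13 and 6.59 in the MI mice and 4.54, 4.56, 4.31 and 4.35 in the sham-operated mice. It was not well above background on any sham array, so that only a bound holds. On the scale of the deposited data it was at least 3.9-fold higher in MI mice. With a scale fitted anew to the spike-in spots, its log2 fold change was 0.37. Oasl1 was at 10.20, 10.77, 10.72 and 10.76 in the MI mice and 9.23, 8.54, 9.03 and 8.79 in the sham-operated mice. Its log2 fold change was 1.72 ± 0.22 (3.29-fold, adjusted p = 3.70e-06), and MI mouse 1 was the lowest of the MI mice. Oasl2 was at 10.25, 10.10, 10.24 and 10.19 in the MI mice and 9.11, 8.67, 9.02 and 8.64 in the sham-operated mice. The 4 MI mice agreed within 0.2 and the log2 fold change was 1.33 ± 0.20 (adjusted p = 5.40e-05).

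Oas1a was at 10.85, 10.97, 10.77 and 11.22 in the MI mice and 10.30, 9.96, 9.86 and 9.79 in the sham-operated mice. It rose by 0.97 ± 0.21 (adjusted p = 0.0027), and its second probe by 1.04. Oas2 was at 10.12, 10.47, 10.08 and 10.39 in the MI mice and 9.77, 9.16, 9.72 and 9.38 in the sham-operated mice. The groups were separate, but the call of Oas2 (0.76 ± 0.21, adjusted p = 0.0246) was lost with 75th percentile scaling (0.64, adjusted p = 0.0644) and when MI mouse 4, sham mouse 2 or sham mouse 4 was left out (adjusted p up to 0.0949). Eif2ak2, the kinase PKR, which stops translation when it meets double-stranded RNA, was at 8.42, 7.92, 8.34 and 8.37 in the MI mice and 8.21, 7.65, 8.15 and 8.06 in the sham-operated mice. It did not pass, at 0.24 ± 0.21 (adjusted p = 0.579), and MI mouse 2 lay among the sham-operated mice.

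Rsad2 (viperin, an enzyme that makes a chain-ending nucleotide) and Cmpk2, a mitochondrial nucleotide kinase that supplies it, both rose. Rsad2 was at 10.10, 10.50, 10.42 and 10.39 in the MI mice and 9.23, 8.92, 9.04 and 8.93 in the sham-operated mice. Its log2 fold change was 1.32 ± 0.20 (2.5-fold, adjusted p = 5.38e-05). Cmpk2 was at 8.28, 8.15, 8.28 and 8.06 in the MI mice and 7.41, 6.88, 7.10 and 7.13 in the sham-operated mice. Here the difference was 1.06 ± 0.20 (adjusted p = 8.91e-04), with 1.00 by the second probe, and neither gene's groups overlapped.

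**Figure D3:**
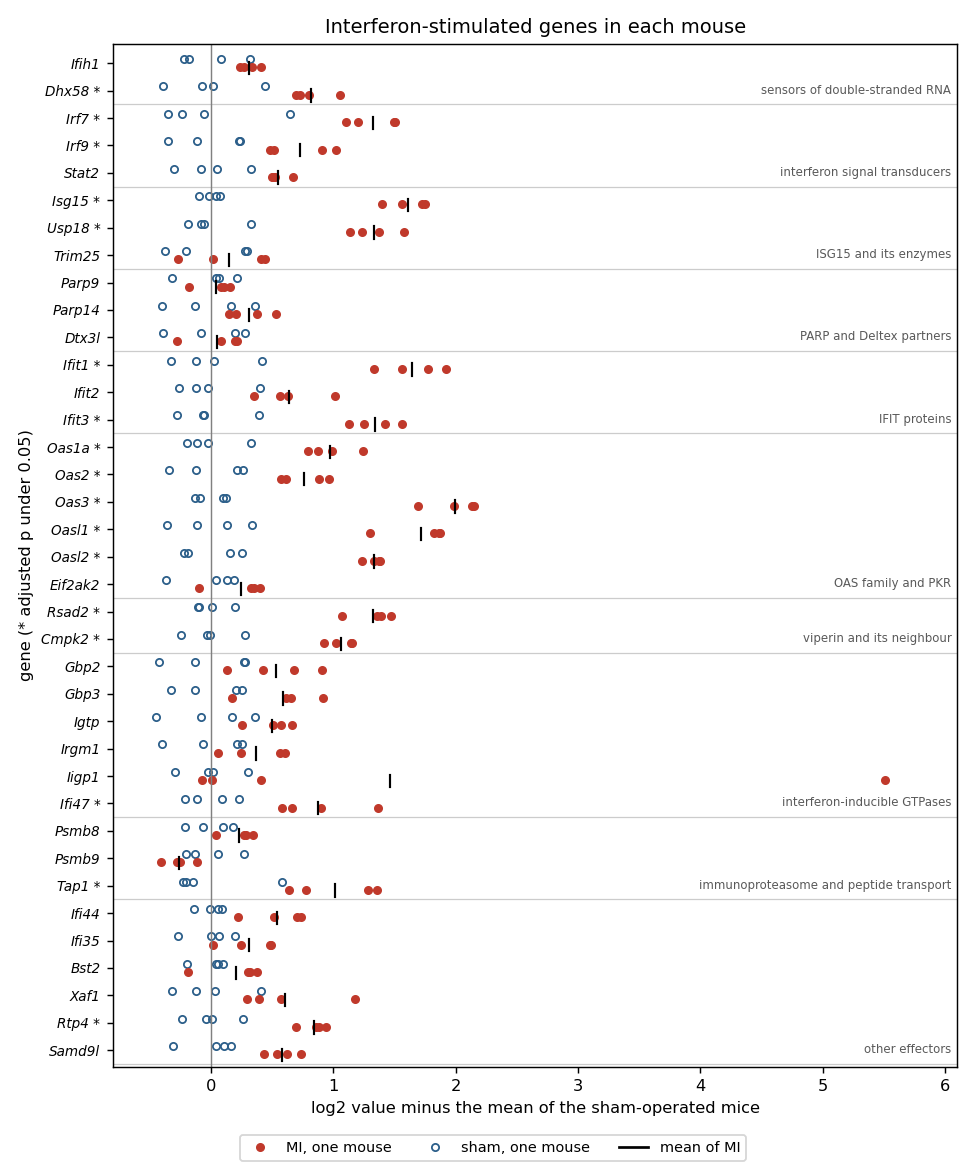
Log2 value of each measured interferon-stimulated gene in each mouse minus the mean of the sham-operated mice (x axis), by gene (y axis) in groups by role; filled points are MI mice, open points sham-operated mice, black bars the MI means, and an asterisk an adjusted p under 0.05. Groups are apart for Isg15, Ifit1, Oas3, Oasl1 and Rsad2, and a single MI mouse lies far to the right for Iigp1.

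Among the transcription factors of the pathway, Irf7, which drives the interferon alpha genes, was at 8.71, 8.32, 8.72 and 8.42 in the MI mice and 7.86, 6.86, 7.15 and 6.97 in the sham-operated mice. It rose by 1.33 ± 0.23 (2.51-fold, adjusted p = 2.48e-04). Irf9, the part of the ISRE-binding complex that touches DNA, was at 10.86, 10.47, 10.97 and 10.44 in the MI mice and 10.18, 9.60, 10.19 and 9.84 in the sham-operated mice. The groups were separate and the difference was 0.73 ± 0.22 (adjusted p = 0.0356), but the call was lost when MI mouse 1, MI mouse 3, sham mouse 2 or sham mouse 4 was left out (log2 fold change of 0.61 or more, adjusted p up to 0.137). Stat2, its partner, was at 9.97, 9.96, 10.12 and 9.95 in the MI mice and 9.50, 9.15, 9.78 and 9.37 in the sham-operated mice. All MI mice were above all sham-operated mice, yet 0.55 ± 0.21 did not pass (adjusted p = 0.11).

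Of the sensors of double-stranded RNA, Dhx58 was at 7.22, 7.33, 7.25 and 7.58 in the MI mice and 6.97, 6.45, 6.54 and 6.13 in the sham-operated mice. It rose by 0.82 ± 0.22 (adjusted p = 0.016), a call lost when MI mouse 4 or sham mouse 4 was left out (adjusted p up to 0.103). Ifih1, the sensor MDA5, was at 8.85, 8.81, 8.98 and 8.91 in the MI mice and 8.66, 8.36, 8.89 and 8.40 in the sham-operated mice. Sham mouse 3 lay among the MI mice, and the log2 fold change was 0.31 ± 0.20 (adjusted p = 0.43). Parp9 and Dtx3l, which work as a pair in DNA repair and interferon signalling, and Parp14, a related ADP-ribosyl transferase, did not pass. Their log2 fold changes were 0.04 ± 0.21, 0.05 ± 0.22 and 0.32 ± 0.21 (adjusted p = 0.941, 0.927 and 0.455), with overlapping groups in all 3. Parp9 was at 9.85, 9.59, 9.92 and 9.88 in the MI mice and 9.84, 9.45, 9.98 and 9.82 in the sham-operated mice, and the sign of both Parp9 and Dtx3l turned with 75th percentile scaling.

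Of the 6 interferon-inducible GTPases, which attack the membranes around intracellular microbes, 1 rose. Ifi47 was at 9.68, 9.44, 10.15 and 9.36 in the MI mice and 8.88, 8.67, 9.01 and 8.57 in the sham-operated mice. It rose by 0.88 ± 0.22 (adjusted p = 0.0106), a call lost without MI mouse 3, its highest (0.71, adjusted p = 0.0714). Gbp2, Gbp3, Igtp and Irgm1 had log2 fold changes of 0.54 ± 0.23, 0.59 ± 0.22, 0.50 ± 0.22 and 0.37 ± 0.22, with overlapping groups and adjusted p between 0.107 and 0.370, and the second probe of Irgm1 gave 0.48. Their MI values ran from 8.71 to 10.88 and their sham values from 8.21 to 10.58.

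Iigp1 was read very differently in 1 mouse. Its brightest probe was at 10.08, 15.58, 10.48 and 9.99985 in the MI mice and 10.37, 9.77, 10.05 and 10.09 in the sham-operated mice, so that MI mouse 2 was more than 5 log2 units above every other mouse and the other 3 MI mice lay among the sham-operated mice. A second probe of Iigp1 was at 8.07, 7.72, 8.60 and 8.30 in the MI mice and 8.35, 7.66, 7.93 and 8.30 in the sham-operated mice, with MI mouse 2 the lowest MI mouse. The log2 fold change of the brightest probe was 1.46 ± 0.69 (adjusted p = 0.23), and 0.12 without MI mouse 2 (adjusted p = 0.740). It passed when MI mouse 3, MI mouse 4 or sham mouse 4 was left out (1.82, 1.98 and 1.47). With the mean over both probes it was 0.79.

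Tap1 carries peptides into the endoplasmic reticulum for MHC class I, and Psmb8 and Psmb9 are the catalytic subunits that turn the proteasome into the immunoproteasome. Tap1 was at 7.33, 6.68, 7.41 and 6.82 in the MI mice and 6.62, 5.82, 5.90 and 5.84 in the sham-operated mice. It rose by 1.01 ± 0.23 (2.02-fold, adjusted p = 0.00547), and the highest sham value, that of sham mouse 1, lay just under the lowest MI value. Psmb9 was at 9.76, 9.61, 9.75 and 9.91 in the MI mice and 10.29, 9.89, 10.08 and 9.82 in the sham-operated mice. Its log2 fold change was -0.26 ± 0.20 (adjusted p = 0.522), the only one of the 37 below 0 on the scale of the deposited data. Psmb8 was at 10.46, 10.22, 10.45 and 10.52 in the MI mice and 10.36, 9.97, 10.28 and 10.12 in the sham-operated mice, a difference of 0.23 ± 0.20 (adjusted p = 0.577).

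Tap1 and Psmb9 are transcribed away from each other, and their promoter windows share 275 bases (chr17:34187306-34187580). The window of Tap1 is printed because it serves both genes, and it held neither an ISRE nor a GAS core. This pair was singled out after its values were seen, and the difference between the 2 fold changes was not tested.
Tap1 (chr17:34187306-34187605, plus strand): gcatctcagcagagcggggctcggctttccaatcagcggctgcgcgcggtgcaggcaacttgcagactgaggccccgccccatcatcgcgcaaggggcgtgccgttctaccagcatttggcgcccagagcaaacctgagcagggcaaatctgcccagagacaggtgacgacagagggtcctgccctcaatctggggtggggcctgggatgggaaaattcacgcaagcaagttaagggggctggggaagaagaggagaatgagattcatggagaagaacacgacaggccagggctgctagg

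Of the other effectors, Rtp4, a chaperone of receptors that also restricts viruses, was at 11.30, 11.32, 11.38 and 11.14 in the MI mice and 10.71, 10.40, 10.45 and 10.21 in the sham-operated mice. It rose by 0.84 ± 0.20 (adjusted p = 0.00788), a call lost without sham mouse 4 (0.76, adjusted p = 0.0546). Ifi44 and Samd9l did not pass (0.54 ± 0.20 and 0.58 ± 0.20, adjusted p = 0.112 and 0.0825) although all MI mice were above all sham-operated mice. Samd9l passed with 75th percentile scaling (0.47, adjusted p = 0.0253) and without MI mouse 2 (0.64, adjusted p = 0.0444), and its second probe gave 0.60. Xaf1, Ifi35 and Bst2 had log2 fold changes of 0.61 ± 0.23, 0.31 ± 0.21 and 0.20 ± 0.21, with overlapping groups and adjusted p of 0.113, 0.446 and 0.646. A dim second probe of Xaf1 gave 0.20. Bst2, the tetherin that holds budding viruses on the cell, was already at 11.003 to 11.30 in the sham-operated mice.

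**Figure D4:**
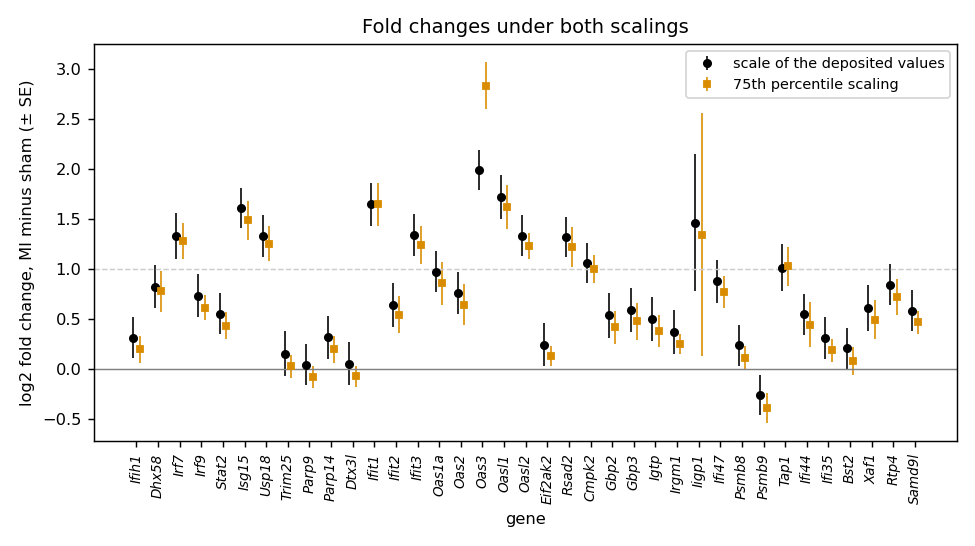
Log2 fold change with its standard error (y axis) of the 37 genes (x axis) on the scale of the deposited data (black circles) and with 75th percentile scaling (orange squares); the dashed line marks a 2-fold change. The 2 scalings give medians of 0.64 and 0.54, and they part most for Oas3, at 1.99 and 2.83, which was not well above background on the sham arrays.

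Beside the counts of genes that rose in the pathway and marker lists stands the 7.74% of all genes that were higher at their brightest probe. Of 11 listed ligands, 5 had a retained probe and none passed in limma, with log2 fold changes between 0.12 and 0.54. The count was 1 at an unadjusted p under 0.05, and significance analysis of microarrays called the same gene, Ifna2 (0.54, adjusted p = 0.117 in limma and 0.0445 with 75th percentile scaling). With the new spike-in fit Ifna2 was at 0.10 (adjusted p = 0.488 in limma). The probes of Ifnb1 and Ifng, the leading type I ligand of most cells and the interferon of T and NK cells, were not well above background on any array. None of the 6 receptors passed in limma, in either direction. One, Il10rb, was lower at an unadjusted p under 0.05 and none by significance analysis of microarrays. Ifnar1 (0.07 ± 0.22), Ifnar2 (0.19 ± 0.21), Ifngr1 (-0.11 ± 0.21) and Ifngr2 (-0.10 ± 0.22) had adjusted p between 0.688 and 0.895. With 75th percentile scaling Il10rb was lower (-0.58, adjusted p = 0.0363), against -0.45 on the scale of the deposited data.

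Of 12 kinases and transcription factors outside the list, 2 rose. Irf5, which acts below Toll-like receptors in myeloid cells, was at 9.43, 9.35, 9.68 and 9.78 in the MI mice and 8.40, 7.99, 8.50 and 8.04 in the sham-operated mice. It rose by 1.33 ± 0.21 (adjusted p = 8.41e-05). Irf1, the early factor of the interferon gamma response, was at 11.60, 10.68, 11.85 and 10.69 in the MI mice and 10.44, 10.05, 10.51 and 10.22 in the sham-operated mice. Its difference of 0.90 ± 0.25 (adjusted p = 0.023) was lost without MI mouse 1, MI mouse 3 or sham mouse 2 (adjusted p between 0.0519 and 0.109), which left 1 of the 12, close to the share over all genes. Irf3, present before any signal, had 0.13 ± 0.21 (adjusted p = 0.796).

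Of 11 negative regulators, 3 rose, each more than 2-fold. Socs3, which blocks the receptors of the interleukin-6 family, was at 12.79, 13.27, 13.39 and 12.97 in the MI mice and 10.93, 10.63, 11.47 and 10.81 in the sham-operated mice, a rise of 2.15 ± 0.22 (4.43-fold, adjusted p = 1.45e-07). Socs1, the inhibitor of the interferon receptors' kinases, was at 8.02, 8.25, 8.45 and 8.37 in the MI mice and 6.66, 6.67, 7.05 and 6.76 in the sham-operated mice. It rose by 1.49 ± 0.20 (adjusted p = 1.22e-05), and Ptpn6, a phosphatase of blood cells, by 1.35 ± 0.21 (adjusted p = 5.21e-05). Irf2bp2 was lower without MI mouse 4 (-0.94, adjusted p = 0.0130), against -0.63 with all mice.

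Of 12 genes of nucleic acid sensing well above background on all 8 arrays, 5 rose: Tmem173 (STING, 1.28 ± 0.21), Zbp1 (1.24 ± 0.20), Myd88 (0.94 ± 0.23), Ddx58 (0.76 ± 0.21) and Mb21d1 (cGAS, 0.69 ± 0.21). STING is the adaptor that answers the DNA sensor cGAS, and it was at 10.97, 10.93, 11.41 and 10.995 in the MI mice and 9.95, 9.47, 10.12 and 9.62 in the sham-operated mice. Zbp1, a sensor of left-handed nucleic acid, was at 9.70, 9.73, 9.69 and 9.70 in the MI mice and 8.68, 8.48, 8.53 and 8.19 in the sham-operated mice, the 4 MI mice agreeing within 0.04. Ddx58, the RNA sensor RIG-I, lost its call (adjusted p = 0.0234) without MI mouse 1, MI mouse 3, sham mouse 2 or sham mouse 4 (adjusted p between 0.0643 and 0.101). Mb21d1 had an adjusted p of 0.0419 in limma, and its call was lost with the new spike-in fit (0.34, adjusted p = 0.106). By the unmoderated t statistic 2 of the 13 sensing genes with a retained probe were higher. Tlr3 had -0.08 ± 0.22 (adjusted p = 0.891). Ikbke, a kinase of the interferon regulatory factors, was retained through 4 MI arrays and 1 sham array. Its difference of 1.00 ± 0.23 (adjusted p = 0.00444) lost its call with the new spike-in fit (0.16, adjusted p = 0.253), after normexp (0.19, adjusted p = 0.236), with the deposited values (0.49, adjusted p = 0.472), without a detection filter (adjusted p = 0.0679) and by the unmoderated t statistic (adjusted p = 0.111).

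Of 32 further interferon-stimulated genes that had a retained probe, 10 rose and none fell, with a median log2 fold change of 0.43. None was lower at an unadjusted p under 0.05 or by significance analysis of microarrays. The largest differences were those of Ifitm1, a membrane protein that blocks viral entry (2.03 ± 0.22), Slfn8 (1.28 ± 0.21), Lgals9 (0.87 ± 0.21) and Zc3hav1 (0.85 ± 0.21). The count fell to 4 without MI mouse 3, to 5 without sham mouse 4 and to 6 without sham mouse 2. None of the 9 other GTPases passed in limma, where 1 (Gbp5, 0.69) was higher at an unadjusted p under 0.05 and by significance analysis of microarrays, and passed without MI mouse 4 (0.88, adjusted p = 0.0167). None of 16 other genes of MHC class I presentation passed, 3 were higher at an unadjusted p under 0.05 and 0 by significance analysis of microarrays. The unmoderated t statistic called no gene among the ligands, the receptors, the other GTPases and these 16. H2-D1 passed without sham mouse 1 (0.78, adjusted p = 0.0398), and B2m, the light chain, had 0.32 ± 0.21 (adjusted p = 0.42).

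Most markers of neutrophils were higher in MI mice. Of 8 neutrophil markers well above background on all 8 arrays, 5 passed, and the mean of the 8 over the sham mean was 1.68 to 2.42 in the MI mice and -0.14 to 0.12 in the sham-operated mice. Csf3r (0.08 ± 0.21), Itgam (0.14 ± 0.24) and Camp (0.64 ± 0.23) did not pass (adjusted p = 0.878, 0.817 and 0.0978). Csf3r and Itgam were already at 15.34 and 14.73 in the sham-operated mice. Ngp was not well above background on any sham array. On the scale of the deposited data it was at least 5.3-fold higher in MI mice, and its log2 fold change was 0.53 with the new spike-in fit. Ltf was retained through 4 MI and 2 sham arrays, at a difference of 0.98 ± 0.23, and of 0.14 with the new spike-in fit. Of 10 monocyte and macrophage markers 2 were higher (Ccr2 and Cd14). The log2 fold changes of the 10 had a median of 0.18. Ms4a7 (-0.49), Adgre1 (-0.24) and Csf1r (-0.16) were below 0, and the others of the 10 were above 0. None was lower in limma or by significance analysis of microarrays, with 4 higher and 1 lower at an unadjusted p under 0.05. The mean of the 10 was 0.07 to 0.74 in the MI mice and -0.25 to 0.23 in the sham-operated mice. The listed monocyte and macrophage markers Cd68 and Ly6c2 and the neutrophil marker Ly6g were not read, since no probe was matched to them by RefSeq accession. Of 7 T and NK cell markers 2 were higher (Cd3d and Lck), with a median of 0.18. Both calls were lost with the new spike-in fit (0.18 and 0.19, adjusted p = 0.181 and 0.190). Cd3e was at -0.12, and the others of the 7 were above 0. Of 4 B cell markers 1 was higher, Cd79b (0.73 ± 0.21, adjusted p = 0.0321), and its call was lost with 75th percentile scaling (0.66, adjusted p = 0.0863).

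None of 5 markers of plasmacytoid dendritic cells passed in limma, at an unadjusted p under 0.05 or by significance analysis of microarrays. Siglech and Cox6a2, the latter also a subunit of heart muscle, were already at 16.46 and 18.73 in the sham-operated mice, and Spib was well above background on 1 sham array, so that a small change in these cells would not show in them. The probes of Cd8a, Ncr1, Blk and Klk1 were well above background on at most 1 array, and those of Cd3g, Klrb1c and Pax5 on none. All 10 cardiomyocyte markers were well above background on all 8 arrays, with a median log2 fold change of -0.06. None passed in limma or by significance analysis of microarrays, with 1 higher and 1 lower at an unadjusted p under 0.05. Pln was lower with 75th percentile scaling (-0.68, adjusted p = 0.00643), against -0.56 on the scale of the deposited data. Of 6 smooth muscle and pericyte markers 2 were higher, Acta2 (1.46 ± 0.25, adjusted p = 2.37e-04) and Cspg4 (0.89 ± 0.24, adjusted p = 0.0202). The median of the 6 was 0.24. Cnn1 was at 0.54, while Rgs5 (-0.34), Myh11 (-0.27) and Tagln (-0.07) were below 0. Rgs5 was lower with 75th percentile scaling (-0.46, adjusted p = 0.0236). The groups of Cspg4 overlapped, and its call was lost with the new spike-in fit (0.75, adjusted p = 0.110). The 6 fibroblast markers had a median of -0.47, and none passed in limma or by significance analysis of microarrays, with 2 lower at an unadjusted p under 0.05. The 7 endothelial markers had a median of 0.17, and none passed in limma, with 2 higher at an unadjusted p under 0.05 and 1 by significance analysis of microarrays. The part of these cells in the rise of the interferon-stimulated genes was not tested.

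The order of the mice in the level of the list depended on the scaling. The mean over the 36 genes well above background on all arrays, minus the sham mean, was 0.71, 0.76, 0.87 and 0.63 in MI mice 1 to 4 and 0.26, -0.25, 0.10 and -0.10 in sham mice 1 to 4. With 75th percentile scaling it was 0.45, 1.06, 0.56 and 0.49 in the MI mice and 0.11, 0.04, -0.11 and -0.05 in the sham-operated mice. Sham mouse 1 was the highest sham mouse on both scales. Without Iigp1, MI mouse 2 was at 0.62, the lowest of the MI mice, on the scale of the deposited data and at 0.92, the highest, with 75th percentile scaling. MI mouse 2 was the lowest MI mouse for 76.7% of all retained probes on the scale of the deposited data and for 23.4% after 75th percentile scaling. After that scaling it was the highest MI mouse for 30 of the 37 genes, against 24.9% of all probes, where it was the highest for 5 of the 37 and 1.89% of all probes before. Its 8 neutrophil markers were at 2.33 on the first scale and 2.71 on the second, where they were the highest of the 4 MI mice. With 4 mice in a group, no correlation between the list and these markers was computed.

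**Figure D5:**
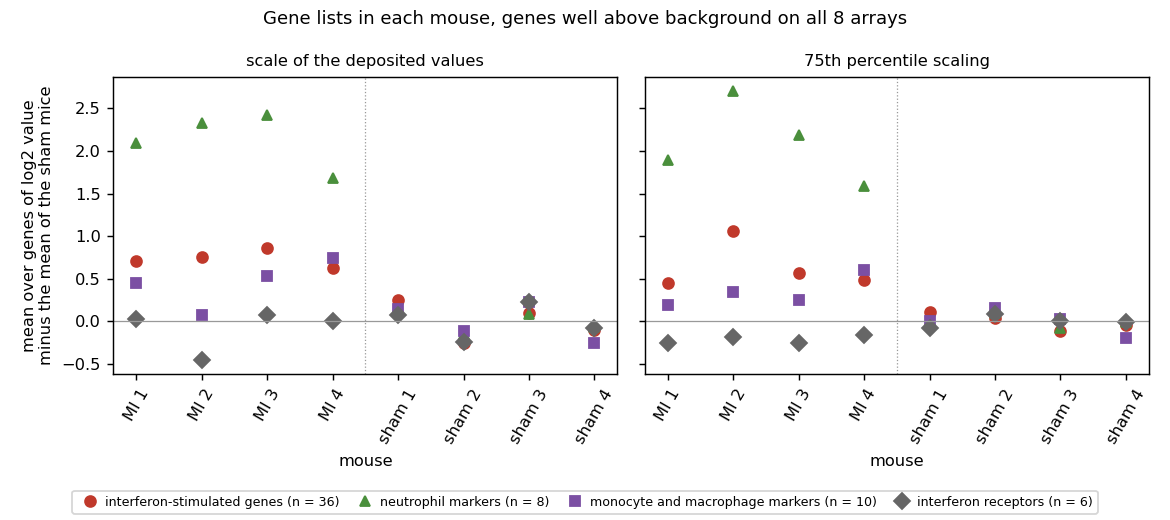
Mean over the genes of a list of the log2 value minus the mean of the sham-operated mice (y axis) in each mouse (x axis), on the scale of the deposited data (left) and with 75th percentile scaling (right), for genes well above background on all 8 arrays. The 36 interferon-stimulated genes (circles) lie between 0.63 and 0.87 in MI mice on the left and between 0.45 and 1.06 on the right, where MI mouse 2 is the highest. Neutrophil markers (triangles) are high in all 4 MI mice, monocyte and macrophage markers (squares) less so, and the 6 interferon receptors (diamonds) lie between -0.46 and 0.23 over all mice on the left.

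The 8 arrays lay on 1 slide, scanned once, with 2 arrays of each group in each of its 2 rows. The share of spots well above background ran from 58.6% to 66.4% per array, and arrays of the same group correlated at 0.990 to 0.995 over the retained probes. Precision is limited by having 4 arrays per group, each of a separate mouse. A probe is named by 1 transcript, and the labels do not say how far it also binds near-identical relatives, which concerns Ifit3, Oas1a and the GTPases.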

How the data were processed

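The deposited intensities are, per the file headers, processed signals of Feature Extraction 11.0.1.1, background-subtracted and without normalization between arrays. The deposited log2 values were normalized by the authors with spike-in probes and limma, and hold no value for a probe not well above background. Each array's scale and additive constant (3.16 to 19.6) were recovered from them to within 5e-09 and applied to the signals of all spots without outlier flags, so that dim spots kept a value. Spots of a probe were averaged and control probes left out. Probes well above background on at least 4 of 8 arrays were retained (34038 probes).

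The difference between MI and sham-operated mice was tested with limma 3.58.1 under R 4.3.3, with no covariate, at a Benjamini-Hochberg adjusted p under 0.05. Single genes were also compared by an exact two-sided permutation test. Python 3.11.15, numpy 2.4.6, scipy 1.17.1, pandas 2.3.3 and matplotlib 3.10.9 were used otherwise.

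Genes were named through the RefSeq accession of each probe, and symbols updated. All 39 genes are named, with, of each pathway list, up to 4 that passed with the largest differences and 12 fixed genes, of which 1 is not reported here; Ifna2, Il10rb, Irf2bp2, Gbp5, H2-D1, Ccr2, Cd14, Cd3d, Lck, Cd79b, Siglech, Cox6a2, Spib, Acta2 and Cspg4 were named after their values were seen. Rgs5, Myh11, Tagln, Cnn1, Ms4a7, Adgre1, Csf1r, Cd3e and Pln were also named after their values were seen. The 39 genes and all lists were chosen with earlier results of these data known. Alternatives were 75th percentile, spike-in and quantile scaling, a new spike-in fit, normexp with an offset of 50, the deposited values, other detection filters, the mean over probes, significance analysis of microarrays with all 70 permutations, an unmoderated t statistic, blocks and leaving out each mouse.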

Additional observations from a re-analysis of the deposited data

Results flagged for a closer look

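In 8 of 118 groups of 4 mice examined, over 59 named genes, 1 mouse lay far from the other 3 on the scale of the deposited data, the gap to the nearest, as a share of the group's range, being above the 95% critical value of Dixon's ratio. Chance gives about 1 in 20 such groups. For Iigp1 in the MI mice, the share was 0.914, with MI mouse 2 at 15.58 and the others between 9.99985 and 10.48, by 1 of its 2 probes. For Oasl1 it was 0.911, with MI mouse 1 at 10.20 under 10.72 to 10.77. For Tap1 in the sham-operated mice it was 0.9002, with sham mouse 1 at 6.62 over 5.82 to 5.90.

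MI mouse 2 was the low one for Bst2 (0.872, at 11.01 against 11.51 to 11.58) and Eif2ak2 (0.852, at 7.92 against 8.34 to 8.42) and the high one for Zbp1 (0.847, at 9.73 against 9.69 to 9.70). MI mouse 3 was the high one for Stat2 (0.865, at 10.12 against 9.95 to 9.97) and Tmem173 (0.860, at 11.41 against 10.93 to 10.995).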

How the results depend on the processing

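Over 13 settings other than leaving out a mouse, the count of genes higher in MI mice lay between 11 and 23 of 37 and that of lower genes at 0, and the median log2 fold change lay between 0.44 and 0.68. The count was 11 without a filter on detection and 11 by the unmoderated t statistic, the lowest of these. The number over 2-fold was 11, but 5 with the new spike-in fit and 6 after normexp, and the cause was not tested. The additive constants of the new spike-in fit were 166 to 256, against 3.16 to 19.6 on the scale of the deposited data. Leaving out each mouse in turn gave 14 to 18 genes higher, 0 lower, 9 to 12 over 2-fold and a median of 0.55 to 0.77. In all of these 21 settings Isg15, Usp18, Ifit1, Ifit3, Oas1a, Oasl1, Oasl2, Rsad2 and Cmpk2 kept their call. Oas3 had no value in 2 of the settings, detection on all 8 arrays and the deposited values. Since it was retained through the MI arrays alone, its calls in the others are not counted here. Irf7 lost its call by the unmoderated t statistic alone. Dhx58, Irf9 and Tap1 lost theirs with the new spike-in fit (adjusted p = 0.0789, 0.0535 and 0.147), Oas2 with quantile scaling, Irf9 and Oas2 with the spike-in shift, and Rtp4 and Ifi47 without a detection filter. No gene past the threshold turned its direction in any setting.

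The correlation of deviations between mice of the same replicate number was 0.24, 0.29, 0.14 and 0.01, and 5 of 8 mice correlated best with their own number, a hint of shared variation that comes from the data and not from the labels. Since the last pair showed next to none, the numbers were not taken to pair the mice. With the replicate block 23 of the 37 genes were higher, 0 were lower, 11 were over 2-fold and the median was 0.64, while over all probes the calls rose from 2144 higher and 446 lower to 3945 and 950. With the block and 75th percentile scaling together, an alternative chosen after seeing the data, 15 were higher. The row of the slide as a block changed no call of the 37.

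Depth is not defined for arrays. A low signal over background limits Oas3 and Ikbke, whose differences moved with each array's additive constant. Oas3 was at 1.99, at 2.83 with 75th percentile scaling and at 0.37 with the new spike-in fit. Ikbke was at 1.00, and at 0.16 with the new spike-in fit. Other dim genes were lower with that fit too: Ifit1 was at 0.78 against 1.65, Tap1 at 0.33 against 1.01 and Dhx58 at 0.31 against 0.82. The bright Isg15 was at 1.52 against 1.61. With 4 mice in a group, the smallest difference among the 37 genes that passed was 0.73.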
